A study of Homo sapiens with 24 samples.

Results

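ZNF genes encode proteins built around the zinc finger, a short loop held by a zinc ion, and they form the largest family of transcription factors in the human genome. They were followed here in 4 Hodgkin lymphoma cell lines given the dual PI3K and ERK inhibitor AEZS-136. The genes were chosen by name and by detection: a probe was taken when its symbol was ZNF followed by a number and its detection value was over 0.95 on all 24 arrays, outside a run of probes whose columns were out of register. This gave 172 probes of 144 genes, out of 639 ZNF probes of 442 genes and 47323 probes in all. Detection therefore fixed that every one of these probes was above background in every group, and the rule does not read the change with the compound, although it was set with earlier results of these data known. The probes nearest to the limit were, inside it, those of ZNF213 (lowest detection value 0.95065) and ZNF654 (0.95325) and, outside it, a second probe of ZNF174 (0.94935) and those of ZNF716, ZNF600 and ZNF586 (each 0.94805).

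The lines, L-540 and SUP-HD1 beside KM-H2 and L-428, are established ones that the labels call human Hodgkin lymphoma. Each line was cultured for 2 h with 10 µM AEZS-136 or with the DMSO vehicle (control), which gave 8 groups of 3 arrays. The study describes necroptotic death under AEZS-136 in L-540 and SUP-HD1, here called sensitive, and its absence in KM-H2 and L-428, here called resistant. Legends of the study speak of independent experiments for array values of a later time. For the 2 h arrays the sources used here do not say whether a group holds separate cultures, and p-values thus measure the spread between arrays, part of which may be technical.

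Array medians of the deposited signal ran from 96 to 127.9, between 16876 and 19524 probes were detected per array, and the number of arrays limits the precision. Of 8 Hodgkin cell markers 6 were tested, with TRAF1 and BATF3 detected on 24 arrays, whereas TNFRSF8, which encodes CD30, was detected on only 7. The summed signal of 5 tested T cell markers out of 6 was between 1451 and 1607 in KM-H2 control and between 1095 and 1141 in KM-H2 AEZS-136 arrays, and between 3791 and 4112 in L-540 control and 3007 and 3384 in L-540 AEZS-136 arrays. It stayed between 167 and 319 in all groups of L-428 and SUP-HD1. The summed Hodgkin markers were also lower with AEZS-136 in KM-H2 (9071 to 9372 in control, 8159 to 8456 with AEZS-136) and in L-540 (7726 to 8073 and 6594 to 7109), as were 5 tested myeloid markers in KM-H2 (1574 to 1707 and 1248 to 1433), whereas the T cell marker CD247 was called higher in KM-H2 (0.45). The part of these markers in the ZNF results was not tested.

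Most human ZNF proteins carry a row of C2H2 fingers that reads DNA, and a large share of them also carry a KRAB domain, which draws in the corepressor TRIM28 and the histone methyltransferase SETDB1 to lay down silent chromatin. KRAB genes lie in clusters, above all on chromosome 19, and are known for silencing transposable elements. Other ZNF proteins activate transcription, hold complexes of chromatin or splicing together, or work on the ribosome. Their transcripts are often short-lived and low, which makes their detection on arrays incomplete.

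AEZS-136 changed a minority of the ZNF genes, in both directions. In the text, a change is AEZS-136 minus control on the log2 scale, and a probe was called higher or lower when its limma p-value, adjusted over all 24578 tested probes, was under 0.05 and its absolute change over 0.4. In KM-H2, 28 of the 172 probes were called (10 higher, 18 lower), beside 14.9% of the 12101 probes detected on all 24 arrays (8.7% higher, 6.19% lower). In L-428, 15 were called (7 higher, 8 lower) beside 9.41% (5.58% higher, 3.83% lower), and in L-540, 23 (12 higher, 11 lower) beside 11.1% (7.17% higher, 3.93% lower).

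In SUP-HD1, 32 ZNF probes were called, 6 higher and 26 lower, beside 8.86% of the probes detected on all 24 arrays. The lower ones made up 15.12% of the ZNF probes, beside 4.88% of that background, while 3.49% were higher beside 3.97%. The median change of the ZNF probes in SUP-HD1 was -0.13, against 0.02 over all probes detected on all 24 arrays, and 109 of the 172 were below 0. In the other lines the ZNF median was -0.01 (KM-H2), -0.01 (L-428) and 0.02 (L-540). For the mean of the 4 lines, 16 ZNF probes were called, 4 higher and 12 lower (2.33% and 6.98%), beside 5.34% and 3.28% of the probes detected on all 24 arrays (8.62% in all), with a median of -0.01 in both sets.

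The balance of rises and falls depended on the scaling. With arrays scaled to a common median in place of quantile normalization, the higher share of the called ZNF probes moved from 35.7% to 92.9% in KM-H2, from 46.7% to 20.0% in L-428, from 52.2% to 66.7% in L-540, from 18.8% to 42.9% in SUP-HD1 and from 25% to 68.2% in the mean of lines. The probes detected on all 24 arrays shifted too, from 58.4% to 92.3% in KM-H2, from 59.3% to 51.1% in L-428, from 64.6% to 89.1% in L-540, from 44.9% to 76.2% in SUP-HD1 and from 61.9% to 80.6% in the mean, and their median change became 0.11, -0.13, 0.08 and 0.16 in the lines in that order. In the authors' own log2 values the higher share was 28.6% in KM-H2, 75.0% in L-428, 50% in L-540, 25% in SUP-HD1 and 33.3% in the mean. For the probes detected on all 24 arrays it was 69.1%, 69.3%, 68.1%, 41.7% and 71.3% in that order. The ZNF shares there rest on only 7, 4, 8, 8 and 3 called probes. With median scaling the SUP-HD1 calls were 3 higher and 4 lower (1.74% and 2.33%, beside 2.04% and 0.64% of the probes detected on all 24 arrays), and the median change of the ZNF probes there was 0.02, beside 0.16. Each of the 114 called values of ZNF probes, over the 4 lines and their mean, kept its sign under both other scalings (0 changed). Called values had to pass the limit of size, which made a change of sign unlikely, so this count says little about the scaling. The changes themselves also moved. With median scaling the ZNF median went from -0.01 to 0.16 in KM-H2 and from -0.01 to -0.13 in L-428. It went from 0.02 to 0.15 in L-540 and from -0.13 to 0.02 in SUP-HD1. In the mean of lines, 11 of the 22 ZNF probes called with median scaling were also called with quantile normalization.

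**Figure D1:**
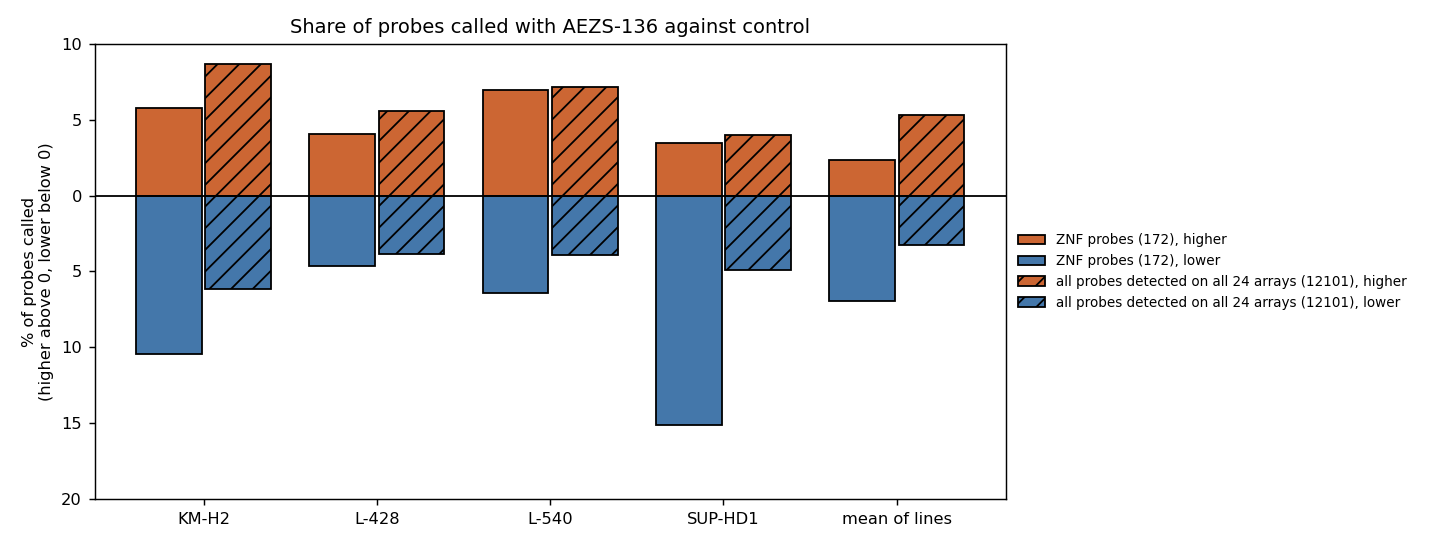
Share of probes called with AEZS-136 in each line and in the mean of lines (y axis, % of probes, higher above 0 and lower below 0), for the 172 ZNF probes (plain bars) and the 12101 probes detected on all 24 arrays (hatched bars). The tallest lower bar of the ZNF probes is that of SUP-HD1, 15.12% beside 4.88%, in quantile normalized values.

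Of the 172 ZNF probes, 63 were called in at least 1 line (36.6%, beside 25.3% of the probes detected on all 24 arrays) and 109 in none. Of the 63, 26 were called higher in at least 1 line (15.1% of the ZNF probes, beside 13.8%) and 39 lower in at least 1 line (22.7% beside 11.8%), with 2 probes (ZNF217 and ZNF594) called in opposite directions in different lines. Of the 26 higher probes 19 were called higher in exactly 1 line (11% beside 7.16%), and of the 39 lower probes 25 were called lower in exactly 1 line (14.5% beside 7.54%). Only 4 genes were called in the same direction in all 4 lines, ZNF296, ZNF174 and ZNF668 lower and ZNF627 higher, beside 0.735% of the probes detected on all 24 arrays called lower and 1.42% called higher in all 4.

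**Figure D2:**
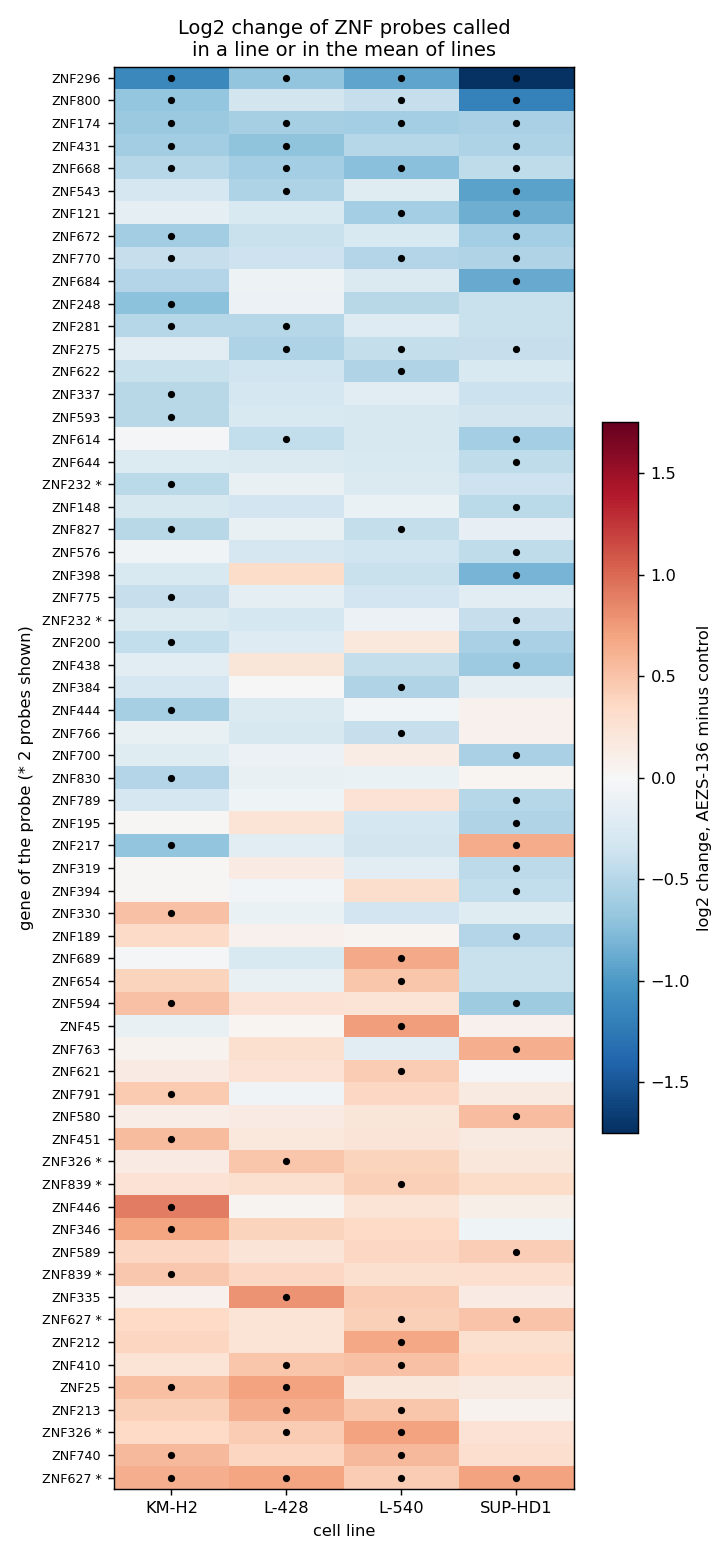
Log2 change (AEZS-136 minus control, colour) of every ZNF probe called in a line or in the mean of lines, with the cell lines on the x axis, the genes on the y axis in the order of the mean change, and black dots on the called values. ZNF296 at the top was called lower in all 4 lines, ZNF627 at the bottom higher in all 4.

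ZNF296 fell furthest of all 172 probes. It encodes a C2H2 protein whose mouse counterpart is known as a partner of KLF4 in the reprogramming to pluripotent cells. In SUP-HD1 the normalized log2 signal was 8.41, 8.29 and 8.66 in the control arrays and 6.78, 6.71 and 6.70 in the AEZS-136 arrays, a change of -1.73 (SE 0.10, limma adjusted p = 5.13e-10). In KM-H2 it was 8.34, 8.32 and 8.27 in control and 7.15, 7.14 and 7.25 with AEZS-136 (-1.13, SE 0.10, adjusted p = 8.93e-08). Every AEZS-136 array lay below every control array of its line, which the choice of genes named for a line asked for.

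The same held in the other lines. In L-540 the ZNF296 signal was 8.85, 8.94 and 8.71 in control and 7.97, 7.79 and 7.95 with AEZS-136 (-0.93, SE 0.10, limma adjusted p = 1.48e-06), and in L-428 it was 9.38, 9.15 and 9.10 against 8.62, 8.48 and 8.47 (-0.68, SE 0.10, adjusted p = 9.14e-05). The mean change was -1.12 (SE 0.05, adjusted p = 6.68e-13), and the 4 changes differed from each other beyond their error, over a range of 1.04 (limma F test, adjusted p = 0.000368). The ZNF296 call in each line held with every array left out in turn, with median scaling and in the authors' values.

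ZNF174, a SCAN domain protein known as a repressor of growth factor genes, changed by nearly the same amount in every line, and its AEZS-136 arrays lay below the control arrays throughout. In L-428 its signal was 7.16, 7.16 and 7.24 in control and 6.58, 6.79 and 6.44 with AEZS-136, and in KM-H2 6.30, 6.37 and 6.12 against 5.73, 5.56 and 5.55. The changes were -0.65 in KM-H2, -0.58 in L-428, -0.60 in L-540 and -0.56 in SUP-HD1, with a mean of -0.60 (SE 0.06, limma adjusted p = 8.91e-08). The mean was -0.51 with median scaling, where a single line (L-428) kept the call, and -0.27 in the authors' values, where none did.

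ZNF668, a protein tied to p53 through MDM2 and to DNA repair, fell most in L-540, from 8.59, 8.45 and 8.70 in control to 7.92, 7.87 and 7.76 with AEZS-136 (-0.73, SE 0.09, limma adjusted p = 1.66e-05). In SUP-HD1 it went from 8.37, 8.16 and 8.31 to 7.75, 8.05 and 7.72 (-0.44, SE 0.09, adjusted p = 0.00438), where AEZS-136 replicate 2 stood nearest to the control arrays. The groups did not overlap in any line, and the mean change was -0.56 (SE 0.05, adjusted p = 1.24e-08). The SUP-HD1 call ended without control replicate 1 or without AEZS-136 replicate 1 or 3 of that line, with changes between -0.55 and -0.38 over the arrays left out. With median scaling ZNF668 was called in L-428 and L-540, and in the authors' values in L-540 alone.

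ZNF627, a KRAB gene of chromosome 19, was the one gene called higher in all 4 lines. Its signal in SUP-HD1 was 7.53, 7.23 and 7.23 in control and 8.0, 7.98 and 8.12 with AEZS-136, and in L-428 7.28, 7.21 and 7.44 against 7.96, 8.01 and 8.05. No AEZS-136 array overlapped the control arrays of its line. The changes were 0.63 in KM-H2, 0.70 in L-428, 0.44 in L-540 and 0.70 in SUP-HD1, with a mean of 0.62 (SE 0.05, limma adjusted p = 3.10e-08). A second ZNF627 probe gave a mean of 0.38 (SE 0.07, adjusted p = 0.000202) and was called in L-540 and SUP-HD1. The L-540 call of the first probe ended without control replicate 1 or AEZS-136 replicate 1 of L-540 (changes of 0.35 to 0.53 over the arrays left out), and with median scaling the calls of KM-H2 and SUP-HD1 stood.

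**Figure D3:**
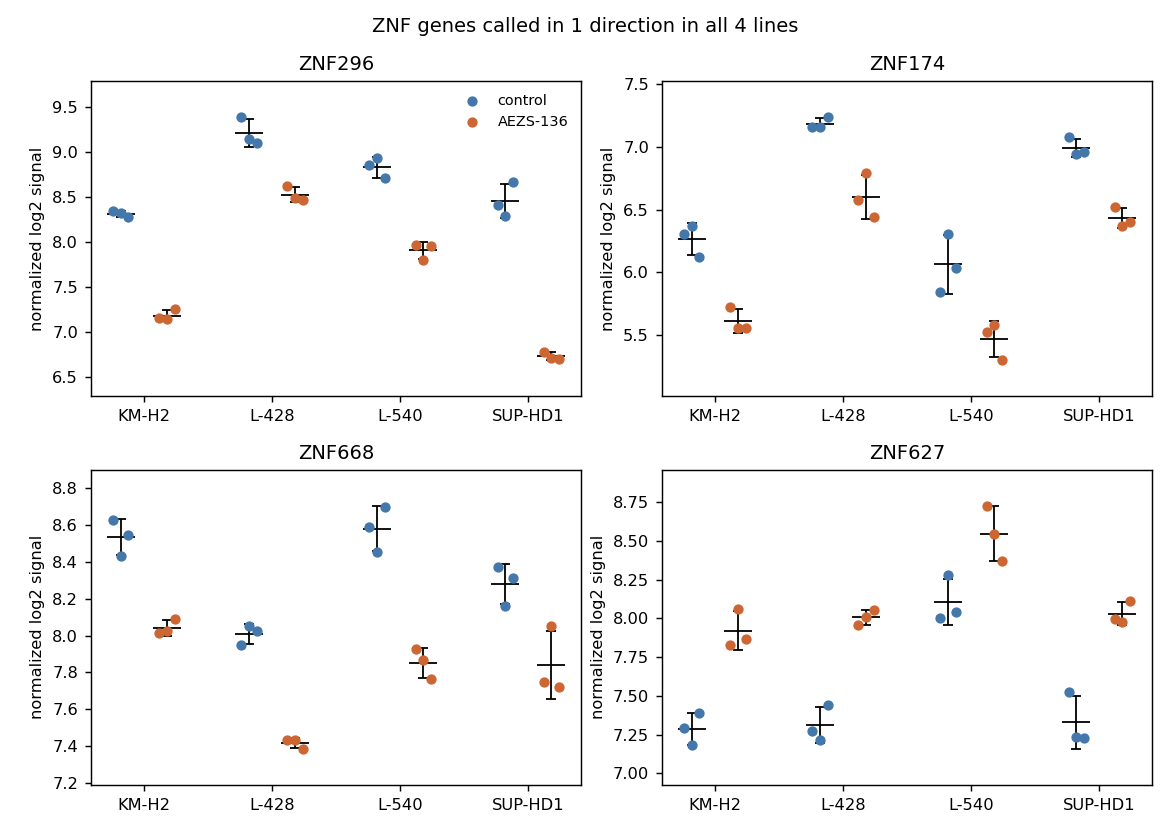
Normalized log2 signal (y axis) of the ZNF genes called in 1 direction in all 4 lines, by cell line (x axis), with control arrays in blue and AEZS-136 arrays in orange, and the mean ± SD of the 3 arrays in black. ZNF296, ZNF174 and ZNF668 are lower and ZNF627 higher with AEZS-136 in each line, with no overlap between the groups of a line.

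Beside ZNF296, ZNF174 and ZNF668, 9 genes were called lower in the mean of lines. ZNF800, known as a repressor of enteroendocrine cell fate in the gut, changed by -0.65 (SE 0.06, limma adjusted p = 1.36e-07). Its signal in SUP-HD1 was 8.22, 8.12 and 8.22 in control and 6.94, 6.78 and 7.29 with AEZS-136 (-1.19, SE 0.13, adjusted p = 3.48e-06), while in L-428 it was 8.75, 8.85 and 8.90 against 8.61, 8.47 and 8.45 (-0.33, adjusted p = 0.135, not called). The L-540 call of ZNF800 (-0.41) ended with any of 16 arrays left out.

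ZNF431, a KRAB gene, changed by -0.59 (SE 0.08, limma adjusted p = 1.67e-05), with its widest change in L-428, where the signal was 6.99, 7.08 and 7.30 in control and 6.05, 6.42 and 6.77 with AEZS-136 (-0.71, adjusted p = 0.00904). The AEZS-136 arrays of L-428 were themselves spread, and its call there ended without AEZS-136 replicate 1 (changes of -0.88 to -0.52). The call in KM-H2 ended without AEZS-136 replicate 2 (-0.70 to -0.53), and the SUP-HD1 call ended with any of 20 arrays left out (-0.71 to -0.39).

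ZNF543 changed by -0.49 (SE 0.07, limma adjusted p = 6.99e-06), and in SUP-HD1 from 6.62, 6.66 and 6.64 to 5.96, 5.45 and 5.71 (-0.94, adjusted p = 6.68e-05). ZNF121 changed by -0.47 (SE 0.05, adjusted p = 5.99e-07) and ZNF672 by -0.46 (SE 0.05, adjusted p = 7.67e-07), the latter in SUP-HD1 and KM-H2 by -0.60 each. The others called lower in the mean were ZNF770 (-0.45), ZNF684 (-0.43, with -0.88 in SUP-HD1), ZNF248 (-0.42) and ZNF281 (-0.40), the last a GC-box binding protein known from stem cells and from the epithelial to mesenchymal transition. ZNF684, ZNF248 and ZNF281 lost the call in the mean when single arrays were left out: ZNF684 without L-428 AEZS-136 replicate 1 or L-540 AEZS-136 replicate 3 (changes of -0.38 and -0.40), ZNF248 without replicate 2 of KM-H2 control, KM-H2 AEZS-136 or SUP-HD1 AEZS-136 (-0.36, -0.38 and -0.40), and ZNF281 without any of 11 arrays.

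Among the genes called higher in the mean of lines, ZNF326 has a known role in RNA biology, as part of the DBIRD complex that couples RNA polymerase II elongation to splicing. Its signal in L-540 was 7.46, 7.51 and 7.46 in control and 8.05, 8.20 and 8.29 with AEZS-136 (0.70, SE 0.12, limma adjusted p = 0.000359), with the groups apart, as the choice of genes named for a line required. The mean change was 0.44 (SE 0.06, adjusted p = 9.40e-06), and a second probe gave 0.30 (SE 0.06, adjusted p = 0.00125). The mean call ended without KM-H2 AEZS-136 replicate 3, at a change of 0.40.

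ZNF740 changed by 0.45 in the mean (SE 0.09, limma adjusted p = 0.000659), and in KM-H2 from 5.42, 5.55 and 5.21 to 6.04, 5.75 and 6.08 (0.56, adjusted p = 0.0373). Its groups overlapped in L-428 and L-540, and the L-540 call ended with any of 13 arrays left out and the KM-H2 call with any of 4. ZNF213, which carries SCAN and KRAB domains, changed by 0.40 (SE 0.07, adjusted p = 0.000228), most in L-428, from 6.49, 6.45 and 6.38 to 7.07, 7.20 and 6.98 (0.64, adjusted p = 0.00578). In SUP-HD1 its change was 0.07, and its mean call, which was at the limit of 0.4, ended with any of 10 arrays left out.

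The start sites of several of these genes were read from RefSeq promoters (GRCh38.p14, 250 bases before to 50 after the start), which matched 127 of the 144 genes. They are printed for the gene that fell most, for the gene that rose in all lines, and for the 3 genes called lower in the mean whose window held a searched motif. Capitals mark the motifs, TGACGTCA (the cyclic AMP response element, CRE) in ZNF121 and ZNF543, the core of the YY1 motif (AAGATGGCG, here on the other strand) in ZNF121, and the NRF1 core GCGCATGCG, present on both strands in overlap, in ZNF800. Each runs from 5′ to 3′ on the strand of the gene.
ZNF296, chr19:45076429-45076728, minus strand: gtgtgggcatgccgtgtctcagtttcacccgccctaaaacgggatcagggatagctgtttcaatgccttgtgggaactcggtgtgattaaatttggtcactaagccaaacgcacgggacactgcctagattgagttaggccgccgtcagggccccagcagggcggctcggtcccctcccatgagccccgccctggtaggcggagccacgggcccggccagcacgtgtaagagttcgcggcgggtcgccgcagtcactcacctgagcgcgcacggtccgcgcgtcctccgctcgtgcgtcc
ZNF627, chr19:11597233-11597532, plus strand: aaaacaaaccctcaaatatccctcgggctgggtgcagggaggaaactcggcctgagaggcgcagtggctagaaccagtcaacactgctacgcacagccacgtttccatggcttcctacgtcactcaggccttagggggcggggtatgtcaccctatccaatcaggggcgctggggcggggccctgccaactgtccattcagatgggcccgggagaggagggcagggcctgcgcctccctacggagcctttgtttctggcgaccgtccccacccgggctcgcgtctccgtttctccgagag
ZNF121, chr19:9584455-9584754, minus strand: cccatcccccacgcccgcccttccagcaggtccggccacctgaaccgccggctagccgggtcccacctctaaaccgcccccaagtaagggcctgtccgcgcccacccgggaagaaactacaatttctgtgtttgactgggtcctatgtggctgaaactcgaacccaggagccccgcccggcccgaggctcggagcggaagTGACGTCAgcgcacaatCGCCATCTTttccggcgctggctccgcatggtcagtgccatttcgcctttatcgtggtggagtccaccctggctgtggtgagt
ZNF543, chr19:57320222-57320521, plus strand: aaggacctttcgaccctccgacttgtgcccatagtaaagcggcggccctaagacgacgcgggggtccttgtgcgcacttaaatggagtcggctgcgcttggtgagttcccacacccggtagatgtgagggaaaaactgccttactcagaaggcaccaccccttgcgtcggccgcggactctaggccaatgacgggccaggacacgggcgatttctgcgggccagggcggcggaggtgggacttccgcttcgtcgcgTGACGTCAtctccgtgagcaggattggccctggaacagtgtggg
ZNF800, chr7:127392659-127392958, minus strand: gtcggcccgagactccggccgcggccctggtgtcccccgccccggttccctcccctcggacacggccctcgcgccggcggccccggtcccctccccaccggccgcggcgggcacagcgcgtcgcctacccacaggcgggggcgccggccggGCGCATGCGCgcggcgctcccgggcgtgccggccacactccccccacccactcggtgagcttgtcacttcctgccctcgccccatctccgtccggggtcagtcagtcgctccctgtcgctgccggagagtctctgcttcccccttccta

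In ZNF121 the CRE began at position -50 from the start and the YY1 core at -33, in ZNF543 the CRE began at position 7, and in ZNF800 the NRF1 core began at position -99. Searched on both strands, CRE was in the windows of 10 of 127 ZNF genes (7.87%), beside 540 of 27305 promoters of all genes (1.98%). The NRF1 core was in 6 (4.72% beside 2.1%) and the YY1 core in 6 (4.72% beside 1.85%). TACAANTCC, the core of the motif of ZNF143, was in 5 (3.94% beside 1.58%), and TGATGNAA, the composite of ATF4 and C/EBP, in 4 (3.15% beside 3.67%). Of the 12 genes called lower in the mean, 2 held CRE, 1 the YY1 core and 1 the NRF1 core, and of the 4 called higher 0 held any of the 5 motifs. The ZNF genes had to be detected on every array, whereas the promoters of all genes were taken without regard to detection. Promoters of the other genes detected on every array were not counted apart. Whether the ZNF shares differ from those of such genes was not tested. A match describes the letters in the window and no more.

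For lists of roles, each gene was read from its probe with the highest mean signal. All 5 genes of ribosome assembly and quality control in the list were among the 144. In the mean of lines 5 of 5 were below 0, beside 95 of the 172 ZNF probes and 6394 of the 12101 probes detected on all 24 arrays. The 5 genes had a median of -0.23, beside -0.01 over all probes detected on all 24 arrays, and 0 were called in the mean. ZNF622, whose yeast counterpart frees a factor from the new large ribosomal subunit, changed by -0.38 (SE 0.04, limma adjusted p = 1.51e-07) and was called in L-540, from 10.47, 10.39 and 10.5 to 9.82, 9.99 and 9.98 (-0.52). ZNF593, whose yeast counterpart also joins the large subunit, changed by -0.34 (SE 0.04, adjusted p = 8e-06) and was called in KM-H2, from 10.30, 10.31 and 10.31 to 9.77, 9.75 and 9.97 (-0.48). ZNF598, the ubiquitin ligase of collided ribosomes, changed by -0.02 (adjusted p = 0.857), and its second probe by 0.10 (adjusted p = 0.332).

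Of the 5 RNA-binding and splicing ZNF proteins, all among the 144 genes, 1 was called higher in the mean (ZNF326) and 0 lower. ZNF346, which binds double-stranded RNA, was called in KM-H2, from 6.49, 6.77 and 6.52 in control to 7.33, 7.22 and 7.30 (0.69, SE 0.21, limma adjusted p = 0.0318), a call that ended with any of 5 KM-H2 arrays left out (0.64 to 0.78).

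Of the 14 activators and chromatin partners among the 144 genes, out of 20 in the list, 0 were called higher and 1 lower (ZNF281) in the mean. ZNF410, whose known main target is the NuRD helicase gene CHD4, was called in L-428 and L-540 (0.48 and 0.52), with a mean of 0.40 (SE 0.04, adjusted p = 3.62e-07) just under the limit, while CHD4 itself changed by 0.00 (adjusted p = 0.997). ZNF335, a partner of histone methyltransferase complexes, was called in L-428, from 5.59, 6.06 and 5.20 to 6.24, 6.45 and 6.51 (0.78, SE 0.16, adjusted p = 0.00341). Of the 5 sequence-specific regulators of the list of 19, most of them KRAB proteins, 0 were called in the mean and ZNF45 was called in L-540.

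The corepressors that KRAB proteins work through were tested at 37 of 38 genes, some of them detected on few arrays. In the mean of lines 2 were called higher and 0 lower, beside 4.22% and 2.47% of all tested probes. In single lines 1 was called higher and 1 lower in KM-H2, 2 and 3 in L-428 (MORC2, SUV39H2 and DAXX lower), 3 and 1 in L-540, and 0 and 0 in SUP-HD1. Of all tested probes 6.47% were higher and 4.75% lower in KM-H2, and 4.05% and 3.22% in L-428. The shares were 5.53% and 3.53% in L-540 and 2.94% and 3.6% in SUP-HD1. TRIM28 changed by -0.01 (limma adjusted p = 0.96). SETDB1 changed by 0.41 (SE 0.05, adjusted p = 2.13e-06) and was called in L-428 and L-540 (0.40 and 0.62). The other, ATF7IP2, was detected on 8 arrays only, and in L-540, where 0 of 3 control and 3 of 3 AEZS-136 arrays detected it, was at least 1.69-fold higher, the bound set against the lowest signal among detected probes of each control array.

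The chromosome was read from the RefSeq promoters, which matched 127 of the 144 genes, and the rest were left out of this comparison. Of the 127 genes, 44 lay on chromosome 19, with 49 probes. Of these probes 1 was called higher and 4 lower in the mean of lines, against 3 and 8 of 103 on other chromosomes, and the median changes were -0.01 and -0.00. In SUP-HD1 the called falls were 7 of 49 on chromosome 19 and 18 of 103 on the others. Of 18 pairs of ZNF genes that are next to each other among the RefSeq protein-coding genes, 11 had changes of the same sign in the mean of lines. In 1 pair on chromosome 10, ZNF248 was called lower (-0.42) while its neighbour ZNF25 changed by 0.40, with calls in KM-H2 (0.53) and L-428 (0.70), where it went from 6.89, 7.21 and 7.40 to 7.98, 7.93 and 7.70. ZNF668 (-0.56) and its neighbour ZNF646 (0.03) also differed.

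Of the 26 genes with more than 1 probe among the 172, 0 had probes whose mean changes differed by over 0.4. Probes outside the 172 were not part of this count. In the authors' values, a ZNF431 probe of the run out of register changed by 0.12 and the probe among the 172 by -0.30. The widest difference was 0.32, for ZNF322 (-0.04 to 0.28) and for ZNF398 (-0.28 to 0.03).

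The responses of 21 of the 172 ZNF probes differed among the 4 lines (limma F test over the 4 changes, adjusted p under 0.05, with a range over 0.4), beside 8.45% of the probes detected on all 24 arrays. SUP-HD1 had the lowest change of the 4 lines in 15 of the 21, and L-540 the highest in 9. Such counts were not made over the probes detected on all 24 arrays, so they may not be particular to ZNF genes. With median scaling 2 of the 21 kept the call.

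ZNF217, an oncogene amplified in breast cancer whose protein works with CtBP and the demethylase LSD1, had the widest range, 1.34 (limma F test, adjusted p = 0.00511). In KM-H2 its signal went from 7.32, 7.57 and 7.81 to 6.80, 7.20 and 6.65 (-0.68, SE 0.17, adjusted p = 0.00645), and in SUP-HD1 from 9.04, 8.89 and 9.19 to 9.53, 9.83 and 9.73 (0.66, SE 0.17, adjusted p = 0.0149). The groups did not overlap in either line, which the choice of genes named for a line asked for, and the 2 changes were opposite in direction. In L-428 the change was -0.19 and in L-540 -0.32, neither called. The SUP-HD1 call ended without control or AEZS-136 replicate 2 of that line (0.58 to 0.74), and the KM-H2 change under median scaling was -0.46, not called.

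ZNF689, a KRAB gene, rose in L-540 alone, from 9.51, 9.57 and 9.46 to 10.23, 10.10 and 10.20 (0.66, SE 0.09, limma adjusted p = 1.97e-05). In SUP-HD1 it went from 9.68, 9.93 and 9.85 to 9.44, 9.57 and 9.30 (-0.38, adjusted p = 0.00688, under the limit of size), and in L-428 from 10.68, 10.82 and 10.68 to 10.46, 10.36 and 10.55 (-0.27). No group overlapped its control in these 3 lines, which the choice of named genes required in L-540 only. The range of the 4 changes was 1.05 (F test, adjusted p = 4.7e-05). ZNF654 behaved alike in sign, at 0.49 in L-540 and 0.39 in KM-H2 but -0.13 in L-428 and -0.39 in SUP-HD1 (range 0.87, adjusted p = 0.000252).

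ZNF446, with SCAN and KRAB domains, had the widest rise of any ZNF probe in a line, in KM-H2, from 6.46, 6.91 and 6.60 to 7.83, 7.49 and 7.35 (0.90, SE 0.13, limma adjusted p = 6.23e-05). Its change was 0.04 in L-428, 0.24 in L-540 and 0.11 in SUP-HD1. In SUP-HD1, ZNF763 went from 6.39, 6.42 and 5.75 to 6.78, 6.80 and 6.88 (0.63, adjusted p = 0.0171) and ZNF580 from 7.81, 7.97 and 7.96 to 8.40, 8.46 and 8.52 (0.54, adjusted p = 0.00582). For ZNF763 control replicate 3 lay apart from the other control arrays, and its call ended without that array or without AEZS-136 replicate 3 (0.41 to 0.75). ZNF212, which rose in L-540 from 8.14, 8.17 and 8.31 to 8.94, 8.86 and 8.86 (0.68, adjusted p = 4.22e-06), was above its control arrays in every line, with changes of 0.37, 0.24 and 0.28 elsewhere.

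**Figure D4:**
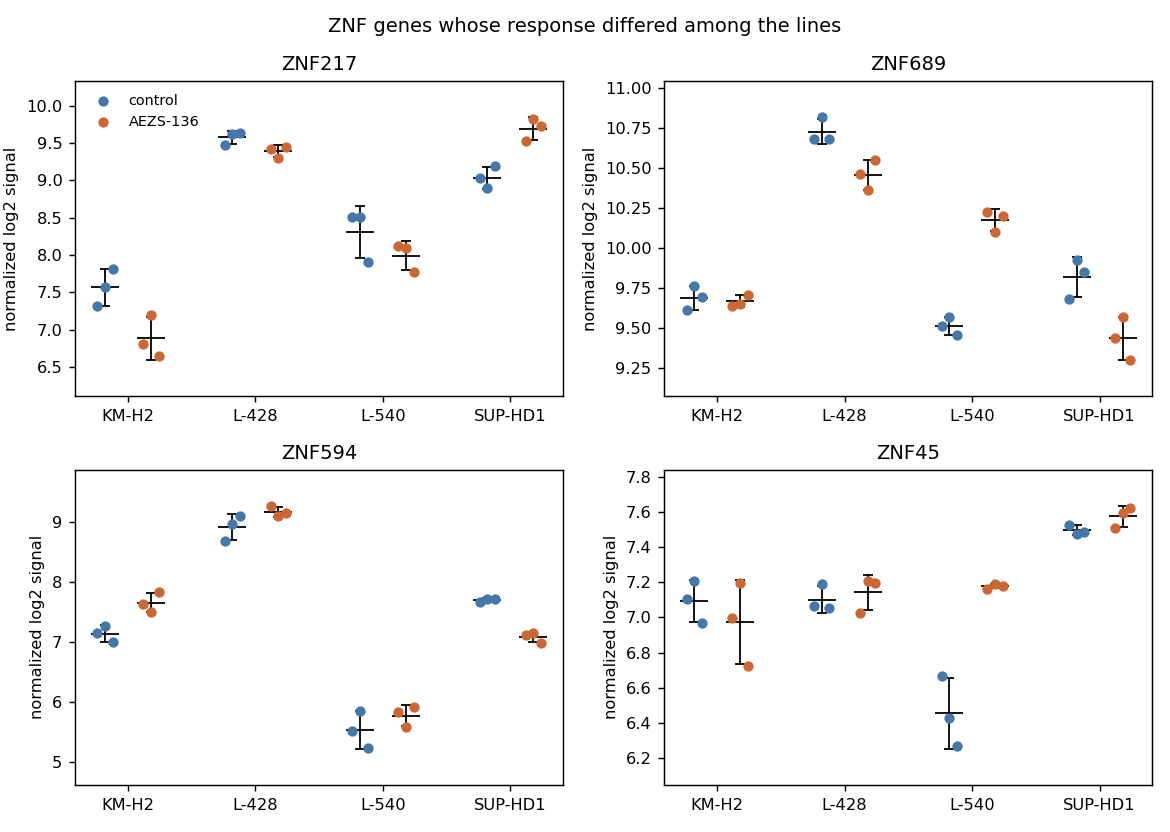
Normalized log2 signal (y axis) of 4 ZNF genes whose response differed among the lines, by cell line (x axis), with control arrays in blue and AEZS-136 arrays in orange, and the mean ± SD of the 3 arrays in black. ZNF217 is lower with AEZS-136 in KM-H2 and higher in SUP-HD1, ZNF689 and ZNF45 are higher in L-540, and ZNF594 is higher in KM-H2 and lower in SUP-HD1.

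The mean change in the resistant lines minus that in the sensitive lines was called for 10 ZNF probes, 9 above and 1 below 0, beside 1.41% and 0.636% of the probes detected on all 24 arrays (2.05% in all). In the authors' values 1 was above and 1 below 0. ZNF398, a protein known to bind the oestrogen receptor, had the widest difference (0.63, SE 0.14), with changes of -0.27 and 0.33 in KM-H2 and L-428 and -0.38 and -0.81 in L-540 and SUP-HD1. In SUP-HD1 its signal was 5.85, 5.95 and 6.41 in control and 5.13, 5.35 and 5.30 with AEZS-136. A second ZNF398 probe gave 0.24, 0.25, -0.11 and -0.25 in the same order, none of them called.

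ZNF594 differed by 0.58 (SE 0.14), from changes of 0.52, 0.26, 0.24 and -0.62, so that its L-540 value lay with the resistant lines. The call of this difference ended with any of 5 arrays left out (0.50 to 0.65), and the KM-H2 call of ZNF594 ended without control or AEZS-136 replicate 3 of that line (0.43 to 0.59). In SUP-HD1 it went from 7.68, 7.73 and 7.72 to 7.12, 7.15 and 6.99. ZNF195 differed by 0.54 (0.02, 0.23, -0.31 and -0.52) and ZNF121 by 0.52 (-0.16, -0.27, -0.60 and -0.86).

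For ZNF121 the signal in L-540 was 9.04, 9.35 and 9.15 in control and 8.60, 8.64 and 8.51 with AEZS-136, and in KM-H2 7.43, 7.33 and 7.26 against 7.15, 7.11 and 7.29. Its groups were apart in L-428, L-540 and SUP-HD1 and overlapped in KM-H2. ZNF45 was the probe below 0 (-0.44, SE 0.11), which came from L-540 (0.73, from 6.67, 6.43 and 6.27 to 7.17, 7.19 and 7.18) and not from SUP-HD1 (0.08). Its call in this comparison ended with any of 16 arrays left out. There are only 2 lines of each class, so class and line cannot be told apart. The 10 calls became 5 without L-428 AEZS-136 replicate 1, 6 without L-540 AEZS-136 replicate 2, and 0 with median scaling.

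Among untreated lines, 73 ZNF probes differed in level. In the control arrays, 73 of the 172 ZNF probes differed among the lines (limma F test, adjusted p under 0.05, with a range of the means over 1), beside 51.0% of the probes detected on all 24 arrays. SUP-HD1 was the highest line for 25 of the 73 and L-540 the lowest for 29, which was not counted over the probes detected on all 24 arrays. Since the probes had to be detected in every line, genes silent in 1 line are not among them.

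The widest range was that of ZNF594, 3.39, with 8.69, 8.98 and 9.11 in L-428, 7.68, 7.73 and 7.72 in SUP-HD1, 7.16, 7.28 and 7.0 in KM-H2, and 5.51, 5.85 and 5.24 in L-540. All 4 lines were apart. ZNF621 (range 3.33) was low in KM-H2 alone (5.44, 6.0 and 5.95), highest in SUP-HD1 (9.14, 9.10 and 9.14), and overlapped between L-428 (8.36, 8.47 and 8.40) and L-540 (8.61, 8.64 and 8.32). ZNF654 (range 3.30) rose in the order KM-H2, L-540, L-428 and SUP-HD1 with no overlap, from 5.10, 5.08 and 4.95 in KM-H2 to 8.41, 8.46 and 8.17 in SUP-HD1. ZNF219 (range 3.24) was high in SUP-HD1 alone, at 9.05, 8.96 and 9.24, while the other lines lay between 5.47 and 6.27.

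**Figure D5:**
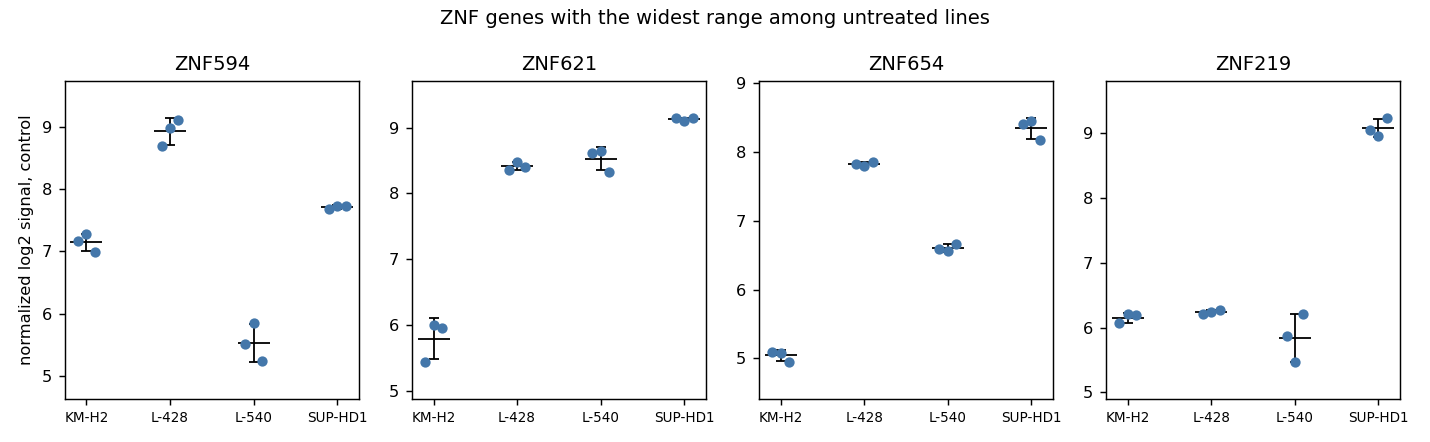
Normalized log2 signal of control arrays (y axis) by cell line (x axis) for the 4 ZNF genes with the widest range among untreated lines, with the 3 arrays of each line as points and their mean ± SD in black. ZNF594 is highest in L-428, ZNF219 is high in SUP-HD1 alone, and ZNF621 and ZNF654 are lowest in KM-H2.

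Of these 4 genes, ZNF219, with the high level in SUP-HD1, changed there by 0.22 (limma adjusted p = 0.512), and ZNF621 changed by 0.44 in L-540 (called) and by -0.03 in SUP-HD1. The L-540 call of ZNF621 ended without control replicate 3 or AEZS-136 replicate 1 of that line (0.34 to 0.50), and it was not called with median scaling (0.54) or in the authors' values (0.35).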

How the data were processed

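RNA from 24 samples of 4 Hodgkin lymphoma lines was labelled as biotin cRNA and hybridized to Illumina bead arrays, with 8 groups of 3. The authors deposited the mean bead intensity of 47323 probes on a linear scale from BeadStudio (version not given in the sources used here), beside a score of detection (1 minus the detection p-value), and a second table of log2 values, which they made with lumi by robust spline normalization. In a run of 3270 consecutive probes the columns were out of register. These probes, 8 of them ZNF, were left out of the main test. The shift gives the order of export of the 24 arrays. That order was cut here in the middle into 2 sets of 12 arrays, each with every group. In KM-H2 and L-428 control and AEZS-136 arrays were spread alike over the sets. In L-540 and SUP-HD1 more of the AEZS-136 than of the control arrays lay in the first set, so treatment and set are partly tied there. The labels do not name such sets.

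The neqc function of limma (version 3.58.1, R 4.3.3) corrected the background and applied quantile normalization with an offset of 16. The test was restricted to 24578 probes with a detection p under 0.05 on 3 or more arrays. The 24 arrays entered a single model with 1 mean per group (lmFit, then eBayes), from which the response of each line, the mean of the responses, resistant minus sensitive lines, and F tests among responses and among control means were taken. Benjamini-Hochberg adjustment covered all 24578 probes, and the study's limits were used (adjusted p under 0.05, absolute log2 change over 0.4). For control levels, a range over 1 was asked for in place of 0.4. Errors of changes are standard errors of the model. The fit was tested on simulated data. Symbols came from the platform annotation. All 172 Entrez IDs were found in RefSeq and 0 symbols changed. Levels of different probes were not compared.

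Named genes were, per line, the 4 widest changes each way among called probes whose groups did not overlap. For the mean they were the 8 widest each way among called probes with 1 sign in all 4 lines. Without a condition on overlap, the 4 each way called by class, the 4 widest called control ranges and those called in all 4 lines were added. Listed genes called in the mean or in 2 lines were added too. Other genes in the text, such as those of the ribosome list, the second probes, the neighbours and the rest called in the mean, were named after their values were seen. The probes and gene lists were chosen with earlier results of these data known. A ZNF gene that the rule leaves out by name is not reported here. Alternatives were the authors' values, median scaling, other detection filters, 1 probe per gene, each line alone, replicate number or export set as a block, each export set alone, each array left out and the methods' t-test. The labels give the samples of a line only replicate numbers in common, and same-numbered samples deviated together only where they lay in the same export set.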

Additional observations from a re-analysis of the deposited data

Results flagged for a closer look

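The change with AEZS-136 differed between resistant and sensitive lines, by the limma test of that difference, for ZNF398 (0.63), ZNF594 (0.58), ZNF195 (0.54), ZNF121 (0.52) and ZNF45 (-0.44), given as resistant minus sensitive on the log2 scale. With median scaling the differences were 0.59, 0.51, 0.45, 0.46 and -0.56 in that order, with 0 of 5 called. In the first and second export set alone, where 2 and 0 of all 24578 probes were called in this comparison, they were 0.69 and 0.49 for ZNF398, 0.41 and 0.51 for ZNF594, 0.54 and 0.51 for ZNF195, 0.47 and 0.60 for ZNF121, and -0.52 and -0.37 for ZNF45.

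The changes of the 4 lines differed among themselves, by the limma F test, for ZNF217 (range of the 4 log2 changes 1.34), ZNF689 (1.05), ZNF296 (1.04), ZNF654 (0.87), ZNF446 (0.86), ZNF800 (0.86), ZNF543 (0.73) and ZNF212 (0.43). ZNF296, ZNF800, ZNF543 and ZNF212 had changes of 1 sign in all 4 lines and differed in size, whereas ZNF217, ZNF689 and ZNF654 had changes of both signs.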

How the results depend on the processing

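Leaving out each array in turn gave between 21 and 30 called ZNF probes in KM-H2, 13 and 16 in L-428, 18 and 24 in L-540, 24 and 32 in SUP-HD1, 13 and 18 in the mean of lines, 5 and 11 between classes, 16 and 26 for differences among lines and 69 and 77 for control levels. In the authors' log2 values the calls were 7 in KM-H2, 4 in L-428, 8 in L-540, 8 in SUP-HD1, 3 in the mean, 2 between classes and 30 for control levels. With median scaling they were 14, 5, 6 and 7 in the lines in that order, 0 between classes and 2 among lines. In the first export set alone they were 0 in L-428, 8 in L-540, 1 in SUP-HD1, 0 between classes and 0 among lines, and in the second 1 in KM-H2, 0 in L-428, 0 in L-540, 3 in SUP-HD1, 0 between classes and 0 among lines. With only the 6 arrays of a line they were 9 in L-428, 11 in L-540 and 15 in SUP-HD1, and with the methods' t-test 3, 2, 7 and 1 in the 4 lines. The authors' values have narrower differences, and single sets have 12 arrays in place of 24. The cause of the other shifts was not tested.

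The replicate block gave 29, 15, 23 and 33 calls in the 4 lines, 16 in the mean, 9 between classes, 19 among lines and 73 for control levels. With the export set as a block there were 30, 15, 23 and 36 calls in the lines in that order. The same block gave 15 in the mean, 10 between classes (7 above and 3 below 0), 22 among lines and 75 for control levels. Same-numbered samples of a line had deviations correlated between -0.178 and 0.096. Pairs within 1 export set lay between 0.035 and 0.096, and pairs across the sets between -0.178 and -0.002. Over arrays of different groups the median correlation was 0.049 within a set and -0.044 across sets, so arrays of a set deviated together slightly. Whether same-numbered samples share more than a number and a set was not tested. For the mean change of the named genes, 721 of the values with an array left out stayed on their side of the limits, 27 fell under and 20 passed them, and of the values under other settings 220 stayed, 24 fell under and 12 passed. Of the named genes called in the mean of lines, 0 reversed there. Probes near background, such as those of ZNF543 and ZNF248, are limited by their signal.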

Other observations

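Other zinc finger families detected on all 24 arrays (ZBTB, ZFP, ZSCAN, ZKSCAN and KLF, 49 probes of 43 genes) had 3 probes called higher and 5 lower in the mean of lines. These were 6.12% and 10.2%, beside 5.34% and 3.28% of all probes detected on all 24 arrays. In SUP-HD1 4 were higher and 6 lower (8.16% and 12.24%, beside 3.97% and 4.88%). Their median change in SUP-HD1 was -0.12, beside -0.13 for the ZNF probes. The 228 tested ZNF probes that were not detected on all 24 arrays had 8 called higher and 9 lower in the mean of lines. These were 3.51% and 3.95%, beside 4.22% and 2.47% of all tested probes. In SUP-HD1 2 were higher and 19 lower (0.88% and 8.33%, beside 2.94% and 3.6%), with a median there of -0.07. A probe that passed the filter through 1 group only had to differ, so these counts are a description.

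The 8 ZNF probes in the run out of register were read from the authors' log2 values alone. The widest mean changes were those of ZNF180 (0.19, SE 0.04, limma adjusted p = 0.000279) and of a further probe of ZNF431 (0.12, SE 0.03, adjusted p = 0.00655), and 0 of the 8 passed the limit of 0.4. This second ZNF431 probe was of opposite sign to the probe described above, which changed by -0.30 in the same values.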
